A study of Sus scrofa with 6 samples.

Results

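Hemojuvelin (HJV), bone morphogenetic protein 6 (BMP6) and 8 genes of cellular iron handling were described in pig ventricular myocardium after chronic pressure overload. The 10 genes were chosen by name, and the group was selected on the strong fall of HJV between the same animals that are described here, so the values of the 10 genes are a description, given with no P, and nothing is read from how many of them passed the test used for other genes. Of the 10, 9 were found by symbol among the 13288 genes listed, and the ferritin heavy chain gene FTH1 was found by its position. The 10 genes passed the filter on low values and were among the 11029 genes tested.

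Male Tibetan minipigs had either a sham operation, in which the descending aorta was exposed but not narrowed (sham group, n = 3), or descending aortic constriction, in which sutures narrowed the descending aorta (DAC group, n = 3). No transgene is named for either group, and the age of the animals was not given in the sources used here. Ventricular tissue was collected at week 12 after surgery and its RNA was sequenced, with 1 library per minipig. Values are FPKM, fragments scaled by transcript length and by the mapped fragments of the library, so levels of different genes can be set side by side.

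Hemojuvelin belongs to the repulsive guidance molecule family and is a co-receptor for BMP ligands. In the liver, BMP6 and hemojuvelin act through BMP receptors and the transcription factors SMAD1, SMAD5 and SMAD9 to switch on hepcidin, the hormone that removes the iron exporter ferroportin from cell surfaces. HJV is also known to be expressed in heart and skeletal muscle. Within cells, the transferrin receptor takes up iron, ferritin stores it, ferroportin releases it, and the iron regulatory proteins bind iron-responsive elements in the mRNAs of these genes when iron is scarce.

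Checked against the heart label, 12 of 14 cardiomyocyte markers were listed, with summed levels of 17700 to 18570 FPKM in sham and 16900 to 19830 FPKM in DAC. PLN and MB were not listed by symbol, so a missing marker does not show a low level. Of 10 skeletal muscle fiber markers 1 was listed, at a level of 0.465 to 0.944 FPKM over the 6 minipigs. Of 8 hepatocyte markers 3 were listed, and their sum was 16.9 to 20.4 FPKM in sham and 16.8 to 21.0 FPKM in DAC. The sum of 10 fibroblast markers was 558 to 648 FPKM in sham and 784 to 881 FPKM in DAC. Of these, the collagen genes COL1A1, COL1A2 and COL3A1 had means of 94.0, 73.3 and 172.7 FPKM in sham and 165.4, 110.3 and 238.4 FPKM in DAC. LUM, POSTN, PDGFRA and FBLN1 had means of 20.5, 2.28, 9.88 and 28.05 FPKM in sham and 34.7, 4.34, 11.8 and 32.35 FPKM in DAC. DCN, TCF21 and DPT had means of 149.6, 6.16 and 54.4 FPKM in sham and 155.7, 6.16 and 58.2 FPKM in DAC. Transcripts encoded by the mitochondrial genome made up 24.0% to 25.3% of the summed FPKM in sham, and 27.2%, 32.8% and 27.1% in DAC replicates 4, 5 and 6. A gene is called a differentially expressed gene (DEG) here at an unadjusted P under 0.05 in limma's moderated test, which called 8.51% of the genes tested in either direction, 3.25% as higher and 5.27% as lower in DAC. Of the 10 fibroblast markers, 5 were called, all as higher (50.0%).

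HJV was the member with the largest difference. Its level was 11.75, 6.26 and 9.81 FPKM in sham replicates 1 to 3 and 5.03, 0.350 and 2.51 FPKM in DAC replicates 4 to 6. The groups did not overlap, although the lowest sham minipig was only 1.24 times the highest DAC minipig. The mean was 9.27 ± 2.78 FPKM (SD, n = 3) in sham and 2.63 ± 2.34 FPKM (SD, n = 3) in DAC, which is 71.6% lower. On the scale of log2(FPKM + 1), the mean difference of DAC from sham was -1.71, the 6th most negative of the 11029 genes tested. Its standard error was 0.51. Standard errors (SE) here come from limma's moderated fit, which draws each gene's variance toward that of other genes. They therefore do not measure the spread of that gene alone, and the SD of HJV on this scale was 1.09 in DAC and 0.42 in sham. In bulk tissue, fewer cells that express a gene and less RNA per cell cannot be told apart.

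The DAC minipigs differed from each other in HJV more than the sham minipigs did. The sham mean was 1.84 times the level in DAC replicate 4, 3.69 times that in replicate 6 and 26.5 times that in replicate 5. The highest DAC level was 14.4 times the lowest, against 1.88 times in sham. The ratios of 26.5 and 14.4 rest on the 0.350 FPKM of DAC replicate 5, which is under the 1 FPKM of the filter. With depth unknown, such a low value is imprecise. The SD of log2(FPKM + 1) of HJV within DAC, which this value also enters, exceeded that of 99.5% of the genes tested. DAC replicate 5, which held the lowest HJV level, also had the largest mitochondrial share, and the part of this share in the result was not tested. Without replicate 5 the ratio of the sham mean to the DAC mean was 2.46 in place of 3.52, and without replicate 4 it was 6.48.

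**Figure D1:**
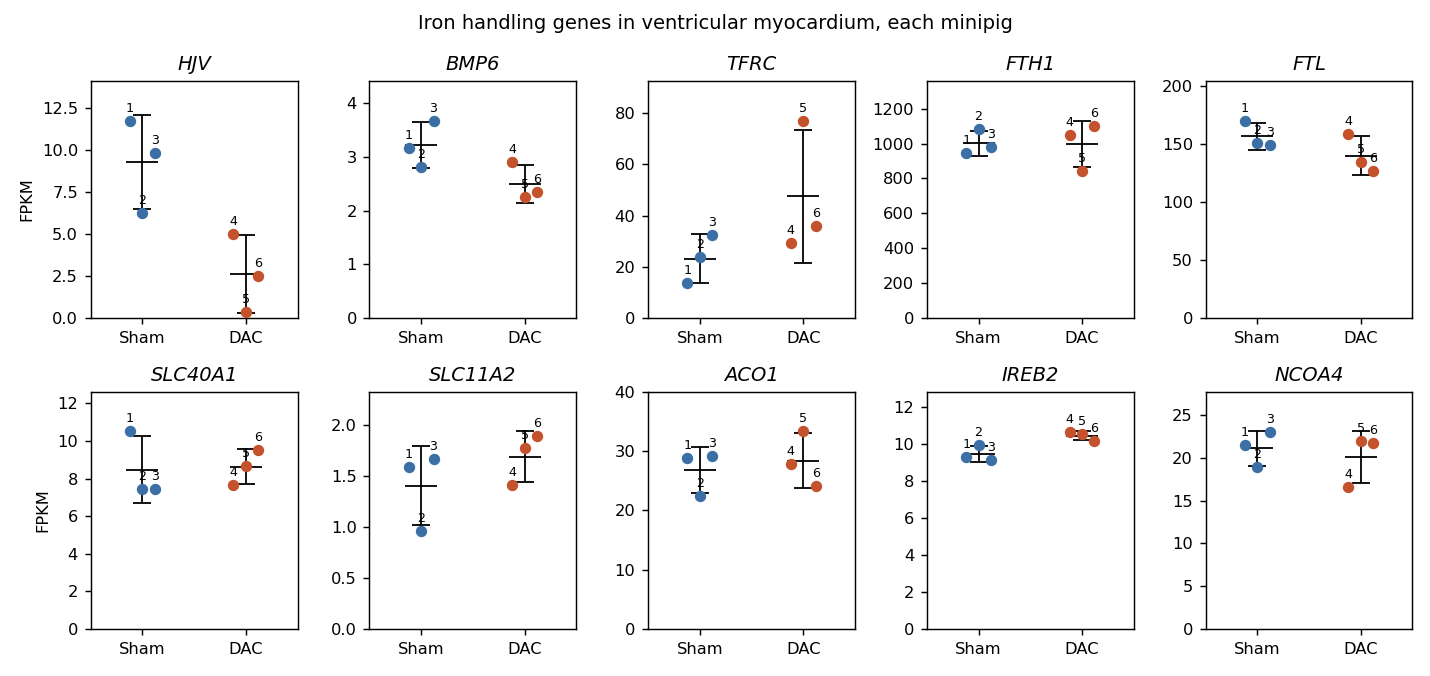
FPKM of each of the 10 genes in each minipig, with the replicate number beside each point, in sham (blue) and DAC (orange), and a separate axis from 0 for each gene. Horizontal lines are means and bars are SD (n = 3). HJV and IREB2 are the genes whose groups do not overlap, and TFRC is spread most widely by the 77.1 FPKM of DAC replicate 5.

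The HJV gene (ENSSSCG00000035429) lies at chr4:99328053-99332647 on the plus strand of the pig build susScr11, and no other listed gene overlaps it. Its close relatives RGMA and RGMB, which are co-receptors for BMP ligands as well, did not pass the test between the groups. RGMA was at 25.95, 16.46 and 23.7 FPKM in sham and 22.39, 19.2 and 20.27 FPKM in DAC. RGMB was at 20.77, 19.4 and 16.84 FPKM in sham and 16.37, 23.35 and 18.52 FPKM in DAC. Both groups overlapped for both genes, and limma's log2 differences were -0.07 (SE 0.17, adjusted P = 0.928) for RGMA and 0.02 (SE 0.15, adjusted P = 0.980) for RGMB. Within a library, the HJV level was 45.3%, 38.0% and 41.4% of the RGMA level in sham and 22.5%, 1.82% and 12.4% in DAC. It was 56.56%, 32.27% and 58.24% of the RGMB level in sham and 30.73%, 1.499% and 13.58% in DAC. These ratios do not depend on how the libraries were scaled. The groups overlapped for neither ratio, but for RGMB sham replicate 2 lay only just above DAC replicate 4.

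**Figure D2:**
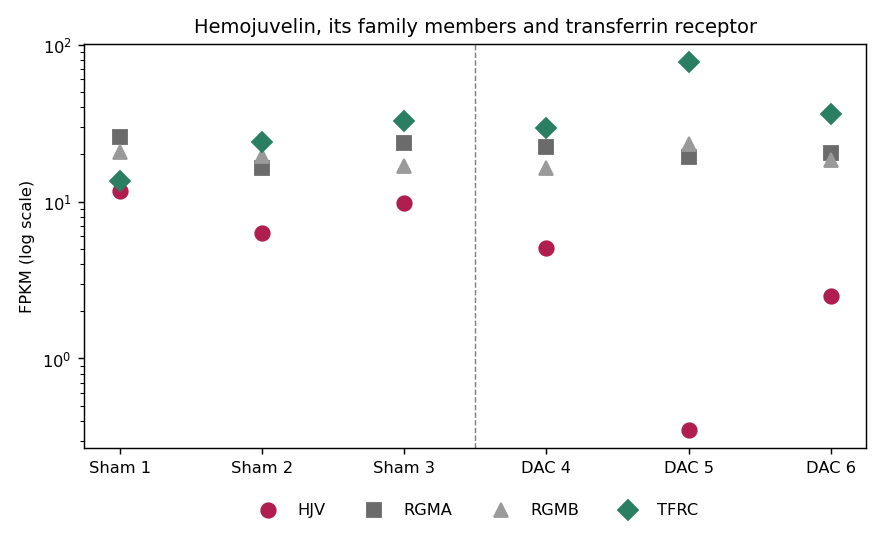
FPKM on a log axis of HJV, its family members RGMA and RGMB, and TFRC in the 6 minipigs, sham to the left and DAC to the right of the dashed line, 1 point per gene and minipig. RGMA and RGMB stay between 16.4 and 26.0 FPKM, while HJV runs from 0.350 to 11.75 FPKM and TFRC from 13.6 to 77.1 FPKM.

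BMP6, the ligand that hemojuvelin presents to its receptors in the liver, had a lower mean in DAC, but its groups overlapped. The levels were 3.17, 2.81 and 3.67 FPKM in sham and 2.90, 2.25 and 2.34 FPKM in DAC. Only DAC replicate 4 lay within the sham range, and it was also the DAC minipig with the highest HJV level. The means were 3.219 ± 0.433 and 2.496 ± 0.348 FPKM (SD, n = 3 each), with a log2 difference of -0.27 (SE 0.13). BMP6 (ENSSSCG00000001027) lies at chr7:5058817-5211316, and its last 1268 bases overlap TXNDC5 on the opposite strand. The library kit is not stated to keep the strand, so reads from the shared stretch cannot be assigned to either gene. TXNDC5 was at 15.5, 16.6 and 14.0 FPKM in sham and 16.8, 20.3 and 19.7 FPKM in DAC. BMP6 is made by endothelial cells in other tissues, and the sum of 12 endothelial markers was 211, 297 and 291 FPKM in sham and 205, 186 and 266 FPKM in DAC. Of the 12 endothelial markers, 2 were called higher and 3 lower in DAC (41.7%, beside 8.51% of all genes tested). The part of these markers in the BMP6 values was not tested.

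Over the 6 minipigs, log2(FPKM + 1) of HJV and BMP6 had a Pearson correlation of 0.88, and 2.59% of the other genes tested had a higher one with HJV. HJV and TFRC had a correlation of -0.89, and 0.916% of the other genes had a lower one. The points are 6 libraries in 2 groups, so the difference between the groups enters each correlation. With the group means removed, the values were 0.72 for BMP6 and -0.81 for TFRC, and their place among the genes tested was not counted. The genes whose pattern was most like HJV were CD81 (Pearson r = 0.995), PCSK1N (0.990), NAXD (0.987), PPP1R37 (0.987) and AKTIP (0.985). CD81, a tetraspanin of the cell surface, was at 72.2, 68.8 and 71.9 FPKM in sham and 65.2, 53.0 and 60.6 FPKM in DAC. It ranked the minipigs of each group in the same order as HJV but over a much narrower range. For BMP6 the most alike genes were SYS1 (0.991), ANKRD11 (0.982), SLC35C2 (0.981), ATF5 (0.979) and EMC10 (0.979). These are the highest of 11028 correlations over 6 points and are given as a description.

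TFRC, the transferrin receptor that carries transferrin-bound iron into cells, had the largest positive difference of the 10 genes. Its levels were 13.6, 23.8 and 32.4 FPKM in sham and 29.4, 77.1 and 36.0 FPKM in DAC. The groups overlapped through sham replicate 3 and DAC replicate 4. The means were 23.3 ± 9.4 and 47.5 ± 25.9 FPKM (SD, n = 3 each), with a log2 difference of 0.95 (SE 0.42). DAC replicate 5 was at 2.14 times the next DAC minipig, and without it the ratio of the DAC mean to the sham mean was 1.40 in place of 2.04. TFRC (ENSSSCG00000011848, chr13:133970594-134000278) varied widely in both groups, with an SD on the log2 scale above that of 97.8% of the genes tested in DAC and 97.2% in sham.

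SLC11A2, the divalent metal transporter that moves iron out of endosomes, was the lowest of the 10 genes in both groups. It was at 1.585, 0.958 and 1.665 FPKM in sham and 1.41, 1.77 and 1.88 FPKM in DAC. The groups overlapped, and the log2 difference was 0.17 (SE 0.16). The gene (ENSSSCG00000034039) lies on the unplaced scaffold AEMK02000258.1 at 341446 to 446461, where ENSSSCG00000035675 on the opposite strand overlaps 10386 of its bases.

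Ferritin was the most abundant product of the group. FTH1, the heavy subunit with ferroxidase activity, was at 944.5, 1083 and 979.3 FPKM in sham and 1049, 844.8 and 1098 FPKM in DAC. The DAC range enclosed the sham range, and the means of 1002 ± 72.2 and 997 ± 134 FPKM (SD, n = 3 each) gave a log2 difference of -0.01 (SE 0.13). FTL, the light subunit, was at 170, 151 and 149 FPKM in sham and 159, 135 and 127 FPKM in DAC. Its DAC mean of 140 ± 16.7 FPKM was lower than the sham mean of 157 ± 11.7 FPKM (SD, n = 3 each), but the groups overlapped, and the log2 difference was -0.17 (SE 0.12).

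The row taken for FTH1 (ENSSSCG00000014540, chr2:9535148-9537977) has no symbol in the deposited table. It covers 96.6% of the RefSeq gene FTH1 on the same build and no other RefSeq protein-coding gene. FTL (ENSSSCG00000003153) lies at chr6:54227164-54232752 and shares 981 bases with DHDH on the same strand. Ferritin genes have processed copies in mammalian genomes, and how reads shared between copies were counted is not given in the sources used here, so both levels are uncertain.

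NCOA4, the receptor that delivers ferritin to lysosomes for iron release, was at 21.5, 18.9 and 23.0 FPKM in sham and 16.58, 21.96 and 21.73 FPKM in DAC. DAC replicate 4 was the lowest of the 6 minipigs, and the other DAC minipigs lay within the sham range. The log2 difference was -0.08 (SE 0.14). NCOA4 (ENSSSCG00000010399) lies at chr14:90503746-90536009, where it overlaps MSMB on the same strand and TIMM23B on the opposite strand.

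SLC40A1, which encodes ferroportin, the iron exporter, did not separate the groups. It was at 10.5, 7.46 and 7.44 FPKM in sham and 7.68, 8.67 and 9.54 FPKM in DAC, and the DAC range lay inside the sham range. The means were 8.47 ± 1.77 and 8.63 ± 0.93 FPKM (SD, n = 3 each), with a log2 difference of 0.04 (SE 0.16). The gene (ENSSSCG00000027157) lies at chr15:94140725-94168210. HAMP, the gene of hepcidin, and the ferroxidase genes CP and HEPH are not among the genes listed by symbol and were not analysed here. Each gene listed reaches at least 0.5 FPKM in 1 sample or more. Absence does not show a low level, since the cardiomyocyte markers PLN and MB are absent too and the FTH1 row has no symbol.

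IREB2, which encodes iron regulatory protein 2, was the other member whose groups did not overlap. It was at 9.30, 9.93 and 9.12 FPKM in sham and 10.6, 10.5 and 10.2 FPKM in DAC. The difference was small, with means of 9.45 ± 0.42 and 10.4 ± 0.24 FPKM (SD, n = 3 each) and a log2 difference of 0.13 (SE 0.09). The SD of IREB2 on the log2 scale in DAC exceeded that of only 2.75% of the genes tested, against 99.5% for HJV. The 2 of 10 members without overlap stand beside 14.9% of the genes tested whose groups did not overlap. ACO1, which encodes iron regulatory protein 1 and acts as the cytosolic aconitase when it holds an iron-sulfur cluster, was at 28.9, 22.4 and 29.3 FPKM in sham and 27.8, 33.4 and 24.1 FPKM in DAC. Its groups overlapped, with a log2 difference of 0.08 (SE 0.16). IREB2 (ENSSSCG00000001756) lies at chr7:47479629-47529227 and ACO1 (ENSSSCG00000023807) at chr10:33937833-34001900.

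**Figure D3:**
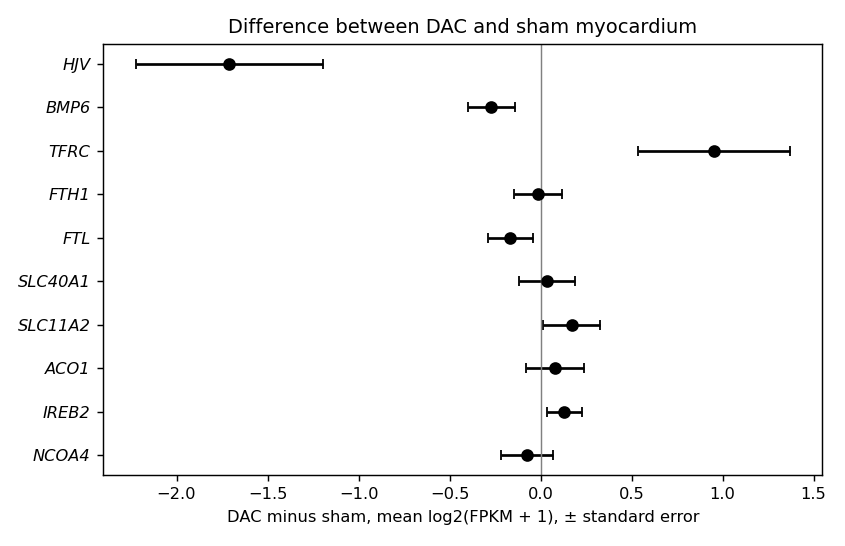
Difference of DAC from sham in mean log2(FPKM + 1) for each of the 10 genes (horizontal axis), with bars of 1 standard error from the fit across all genes tested. HJV lies at -1.71 and TFRC at 0.95, and the other genes lie between -0.27 and 0.17.

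Of the 10 genes, 5 had a higher and 5 a lower mean in DAC, and the median log2 difference was 0.01, against -0.02 over all genes tested. The directions of FTH1, SLC40A1, ACO1 and NCOA4, all with differences under 0.1, turned in 5, 3, 2 and 1 of the alternatives, FTH1 with median scaling and without the mitochondrially encoded genes among them. The count of DEGs among them was 1, HJV, which fixed the choice of the group, and nothing is read from it beside the 8.51% of all genes. In sham the order of the mean levels was FTH1, FTL, ACO1, TFRC, NCOA4, IREB2, HJV, SLC40A1, BMP6 and SLC11A2. Neighbors whose sham ranges overlapped were ACO1 and TFRC, TFRC and NCOA4, IREB2 and HJV, and HJV and SLC40A1. In DAC, TFRC stood above ACO1 and HJV below SLC40A1, and the ranges of TFRC and ACO1 and of HJV and BMP6 overlapped.

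Ratios between members within a library set uptake, storage and export beside each other without any scaling. The TFRC level was 1.44%, 2.20% and 3.31% of the FTH1 level in sham and 2.80%, 9.13% and 3.28% in DAC. The groups overlapped, with the highest value in DAC replicate 5. The ratio of SLC40A1 to TFRC was 0.772, 0.313 and 0.230 in sham and 0.262, 0.112 and 0.265 in DAC, and its groups overlapped. The groups overlapped as well for the ratio of FTL to FTH1 and for that of IREB2 to ACO1.

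Around the members, 46 other genes of BMP signaling were listed by role, of which 36 are in the table and 32 were tested. Of the 32, 1 rose and 1 fell (6.25%), beside 8.51% of all genes tested, and the median log2 difference was -0.01. BMPR1A, a type I BMP receptor, was at 4.06, 4.32 and 3.79 FPKM in sham and 5.81, 4.86 and 4.80 FPKM in DAC. The groups did not overlap, and the mean was 27.1% higher in DAC (limma, log2 difference 0.28, SE 0.11, adjusted P = 0.584). ATOH8, a transcription factor that BMP signaling induces, was at 10.3, 7.54 and 9.18 FPKM in sham and 6.87, 5.37 and 6.87 FPKM in DAC, also without overlap. Its mean was 29.3% lower (limma, log2 difference -0.44, SE 0.15, adjusted P = 0.534). Without sham replicate 1, and likewise without sham replicate 3, neither gene passed, and without sham replicate 2 the count of the 32 was 4. BMPR1A also did not pass without sham replicate 2 or DAC replicate 4, nor ATOH8 without DAC replicate 5. Among all genes tested, 0 passed an adjusted P of 0.05 in limma, and 939 passed an unadjusted P of 0.05.

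The other ligands and receptors did not pass. Among the ligands, BMP2 had a mean of 1.32 ± 0.34 FPKM in sham and 1.36 ± 0.61 FPKM in DAC, and BMP4 of 1.32 ± 0.50 and 1.14 ± 0.16 FPKM (SD, n = 3 each). BMPR2, the type II receptor, had means of 15.5 ± 0.66 and 15.5 ± 1.59 FPKM, ACVR1, a type I receptor, of 7.10 ± 1.12 and 8.10 ± 1.36 FPKM, and NEO1, the hemojuvelin-binding receptor neogenin, of 5.26 ± 0.88 and 5.84 ± 0.11 FPKM (SD, n = 3 each). The groups of these 5 genes overlapped. HFE, the hemochromatosis protein that binds transferrin receptor 1, was below the filter in every minipig, at 0.436 to 0.624 FPKM in sham and 0.576 to 0.927 FPKM in DAC. TFR2, a transferrin receptor of the liver, and TMPRSS6, the protease that cleaves hemojuvelin, are not among the genes listed, which does not show their level.

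The BMP branch SMADs and their direct targets were uneven between the DAC minipigs. SMAD1, a signal-transducing SMAD, was at 4.67, 5.10 and 4.88 FPKM in sham and 5.16, 6.73 and 5.51 FPKM in DAC, without overlap but not past the test (limma, log2 difference 0.20, SE 0.12, adjusted P = 0.656). SMAD5 was at 4.82, 6.999 and 5.07 FPKM in sham and 5.62, 7.64 and 7.305 FPKM in DAC. Both were highest in DAC replicate 5, the minipig with the lowest HJV level. The target ID1 was at 21.8, 25.9 and 18.8 FPKM in sham and 23.45, 11.9 and 32.8 FPKM in DAC. ID3 was at 52.8, 71.3 and 53.2 FPKM in sham and 83.05, 41.9 and 81.1 FPKM in DAC. For both, DAC replicate 5 was the lowest of the 6 minipigs and the other DAC minipigs were within or above the sham range.

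The same minipig was lowest for ID2, at 4.15 FPKM against 5.06 to 10.65 FPKM in sham, for the inhibitory SMAD6, at 7.78 FPKM against 11.47 to 14.22 FPKM, and for the inhibitory SMAD7, at 2.18 FPKM against 2.73 to 4.52 FPKM. In all, DAC replicate 5 was the lowest of the 6 for 8 of the 12 tested genes of this list (66.7%), and for 23.6% of all genes tested. This count was made after the values were seen and has no test. DAC replicate 5 also had the lowest sum of endothelial markers, 186 FPKM, beside 205 FPKM in DAC replicate 4 and 211 FPKM in sham replicate 1. DAC replicate 5 and sham replicate 1 were each lowest for 4 of these 12 markers (33.3%). The part of the endothelial sum in the counts was not tested. None of the SMAD and ID genes named here passed the test between the groups, but without DAC replicate 5 both ID3 and SMAD7 passed, with log2 differences of 0.48 and 0.47.

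The 76 other genes of iron and heme handling gave 63 in the table and 59 tested. Of the 59, 6 fell and 0 rose in limma's test at an unadjusted P of 0.05 (10.2% in either direction, beside 8.51% of all genes tested, with 5.27% of all genes called lower). CYBRD1, an iron-reducing enzyme of the plasma membrane named here after its values were seen, did not pass but was called higher in 6 alternatives, among them the 3 other scalings. The mean was lower in DAC for 45 of the 59 (76.3%), beside 53.4% of all genes tested, with a median log2 difference of -0.11 against -0.02. With the mitochondrially encoded genes left out and the libraries rescaled, the shares were 62.7% and 45.7%. They were 59.3% and 52.7% without DAC replicate 4.

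Most genes of heme synthesis, transport and breakdown had a lower mean in DAC. Of 17 tested, 16 were lower (94.1%, beside 53.4% of all genes tested), with a median log2 difference of -0.19 against -0.02 over all genes. Of the 17, 2 fell past the test (11.8%, beside 8.51% of all genes tested and 5.27% called lower). DAC replicate 4 was the lowest minipig for 9 of the 17 (52.9%, beside 21.1% of all genes). Without it 14 of the 17 were lower (82.4%, beside 52.7%), with a median of -0.145. SLC48A1, a transporter that carries heme out of lysosomes, was at 29.4, 27.3 and 24.5 FPKM in sham and 22.1, 17.8 and 19.7 FPKM in DAC, a mean 26.6% lower (limma, log2 difference -0.43, SE 0.12, adjusted P = 0.50). HMOX2, the constitutive heme oxygenase, was at 25.9, 26.8 and 23.2 FPKM in sham and 19.3, 20.9 and 17.0 FPKM in DAC, a mean 24.6% lower (limma, log2 difference -0.39, SE 0.12, adjusted P = 0.508). Neither gene's groups overlapped, and both passed in each of the 14 alternatives. Both overlap genes on the opposite strand, HDAC7 for SLC48A1 and CDIP1 and NMRAL1 for HMOX2. HMOX1, the inducible heme oxygenase, was low, at 1.56 ± 0.06 FPKM in sham and 1.31 ± 0.25 FPKM in DAC (SD, n = 3 each; limma, adjusted P = 0.740).

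Among the genes of iron uptake, 1 of 8 fell (12.5%, beside 8.51% of all genes tested and 5.27% called lower). CD163, the scavenger receptor by which macrophages take up hemoglobin bound to haptoglobin, was at 11.1, 9.98 and 12.6 FPKM in sham and 9.16, 7.70 and 7.31 FPKM in DAC (28.2% lower, limma, log2 difference -0.43, SE 0.13, adjusted P = 0.508). The groups did not overlap, and CD163 also passed in each of the 14 alternatives. The sum of the 11 macrophage markers listed, CD163 included, was 120 to 155 FPKM in sham and 110, 118 and 179 FPKM in DAC. Of the 11, 8 had a lower and 3 a higher mean log2(FPKM + 1) in DAC. CD163 was called lower and F13A1 higher (18.2%, beside 8.51% of all genes tested). STEAP3, the reductase that prepares endosomal iron for transport, had a larger difference of -0.63 (SE 0.29) but a wider spread, at 9.86, 9.95 and 15.1 FPKM in sham and 4.34, 7.36 and 10.6 FPKM in DAC (limma, adjusted P = 0.596). CYBRD1 was at 10.1, 8.79 and 10.4 FPKM in sham and 12.1, 10.7 and 13.4 FPKM in DAC, without overlap (limma, log2 difference 0.28, SE 0.12, adjusted P = 0.592). SLC39A14, a transporter of iron that is not bound to transferrin, was at 24.5 ± 0.63 FPKM in sham and 23.0 ± 4.76 FPKM in DAC (SD, n = 3 each).

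In mitochondria, 2 of 23 genes of iron import and iron-sulfur cluster assembly fell (8.70%, close to the 8.51% of all genes tested that were called, with 5.27% of all genes called lower). FDX1, a ferredoxin, was at 5.80, 5.92 and 6.37 FPKM in sham and 4.515, 4.32 and 5.30 FPKM in DAC (limma, log2 difference -0.30, SE 0.11, adjusted P = 0.553). HSCB, the co-chaperone that hands clusters on, was at 25.9, 26.8 and 24.65 FPKM in sham and 21.7, 21.3 and 22.3 FPKM in DAC (limma, log2 difference -0.23, SE 0.09, adjusted P = 0.584). Both had groups without overlap, but FDX1 did not pass in 4 and HSCB in 9 of 14 alternatives. The importers SLC25A37, with means of 10.15 ± 0.38 and 9.96 ± 0.79 FPKM, and SLC25A28, with 21.25 ± 2.69 and 21.9 ± 1.85 FPKM (SD, n = 3 each), did not pass.

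FBXL5, the iron-sensing ubiquitin ligase subunit that marks iron regulatory protein 2 for degradation, was at 8.25, 7.73 and 8.37 FPKM in sham and 8.965, 9.13 and 9.12 FPKM in DAC. Like IREB2, it had groups without overlap and a small difference (limma, log2 difference 0.14, SE 0.09, adjusted P = 0.687), which did not pass.

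**Figure D4:**
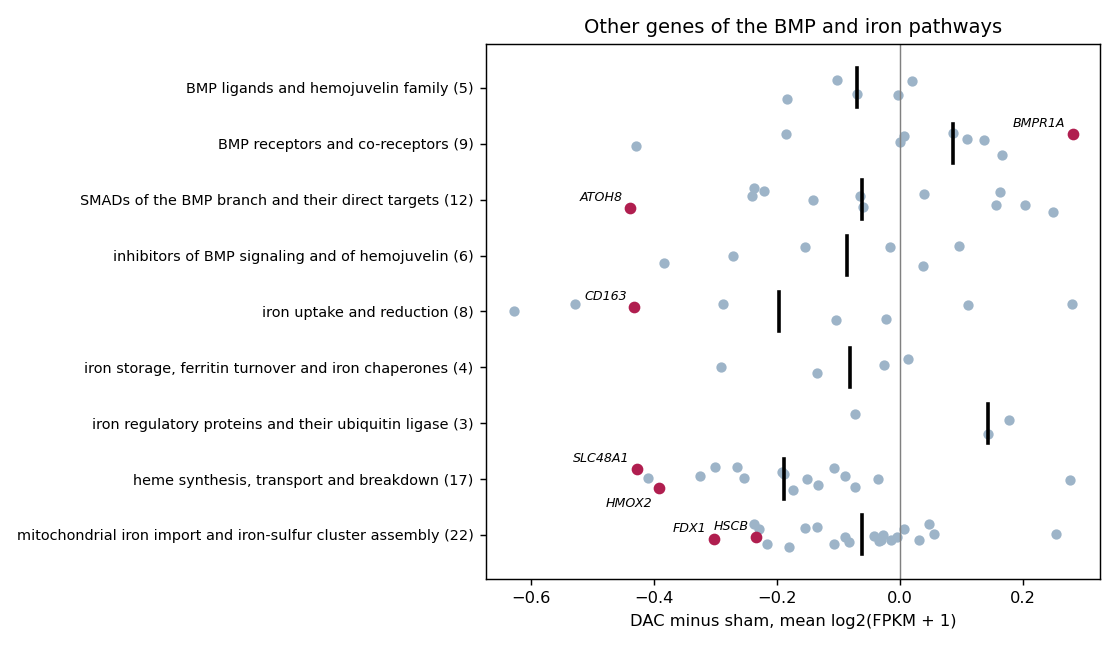
Difference of DAC from sham in mean log2(FPKM + 1) of other tested genes of the BMP and iron lists, 1 point per gene, with the number of genes shown in parentheses and a black bar at their median in each list. Red, labelled points passed an unadjusted P of 0.05 in limma, and vertical scatter within a list only separates points. The heme list has its median at -0.19 and 16 of its 17 genes left of 0, and BMPR1A is the only red point right of 0.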

How the data were processed

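The authors deposited FPKM values per gene for ventricular myocardium of 3 sham and 3 DAC minipigs, 1 library each. The submitters' processing notes name HISAT2 and the build susScr11. The quantification program and annotation release are not given in the sources used here. FPKM hold no read number, so depth is unknown and precision is given by the spread between minipigs. Genes below 0.5 FPKM in their highest sample are not listed.

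FPKM were raised by a pseudocount of 1, put on the log2 scale and fitted with limma 3.58.1 in R 4.3.3, as a linear model with a moderated test and a variance trend. A gene entered where 3 or more minipigs reached 1 FPKM, with Benjamini-Hochberg adjustment over 11029 genes. An unadjusted P under 0.05, the study's threshold, defined a DEG. Ratios between members were taken within each library, and figures drawn with matplotlib 3.10.9 in Python 3.11.15. On simulated data made for DAC against sham with 11029 genes, 195 of 200 changed genes were recovered, and 5.14% of the unchanged genes were called. The changed genes were raised by 1 on the log2 scale, so the recovery of smaller differences was not tested.

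The members and gene lists were chosen with earlier results of these data known. Named genes were the 10 members, every list gene past an unadjusted P of 0.05, a set of pathway genes named whatever their P, and the 5 genes most correlated with HJV and with BMP6. Of 10145 symbols also in RefSeq, 10127 overlapped its position. FTH1, BOLA3 and FKBP1A were found by a reciprocal overlap of at least 50%. The fit was repeated without the filter, with a filter of 5 FPKM, with libraries scaled to a common median or quantile-normalized, with the 13 genes of the mitochondrial genome removed, with a pseudocount of 0.1, with each gene's own variance, with sample weights, and with each minipig left out. No sequence was used here, and no batch is named in the labels. Some results of the lists are not reported here.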

Additional observations from a re-analysis of the deposited data

How the results depend on the processing

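The HJV difference ran from -1.12 without DAC replicate 5 to -2.20 without DAC replicate 4, and was -2.32 with a pseudocount of 0.1. Its groups do not overlap, so leaving out a minipig could not turn its direction. The filters and a variance of each gene on its own leave this difference unchanged. With the other scalings and with sample weights it stayed negative. The 1 member called became 2 (HJV and TFRC) after quantile normalization (887 DEGs of all genes). These 2 were also called without the mitochondrially encoded genes (910) and without sham replicate 3 (631). Leaving out 1 minipig gave 1 to 3, with 3 (BMP6, HJV and TFRC) without DAC replicate 4 (829). With each gene's own variance (889) the 1 member was IREB2 and not HJV, and neither difference changed. These DEG counts are of 11029 genes tested, or 11014 without the mitochondrially encoded genes. The members were selected on this same contrast, so nothing is read from how many of them were called.

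The 939 DEGs became 579 with a minimum of 5 FPKM, where fewer genes were tested, and ranged from 600 (without sham replicate 1) to 1029 (without sham replicate 2). They were 631 without sham replicate 3. With mitochondrially encoded genes left out, the 358 higher and 581 lower DEGs became 502 and 408. The 2 called other BMP genes became 1 with a minimum of 5 FPKM and ranged from 0 to 4 on leaving out 1 minipig. The 6 called other iron genes became 3 without sham replicate 3 (CD163, HMOX2 and SLC48A1), ranged from 3 to 7 on leaving out 1 minipig, and were 9 with a variance of each gene on its own. None of the 6 was higher in DAC, against 1 with each of the 3 other scalings, with a minimum of 5 FPKM, with sample weights, with a variance of each gene on its own and without DAC replicate 5, and 2 without DAC replicate 4.

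For the 8 other pathway genes called, 85 of 111 alternative values passed, 26 did not and 0 changed direction. The next count was not made over all genes tested, so nothing is read from it. Of the 32 other BMP and 59 other iron genes tested, 21 did not pass in the main fit but passed in at least 1 alternative. These were CYBRD1 in 6, higher in DAC, ABCB6 and FURIN in 2 each, and 18 genes in 1 each, among them SMAD5 (0.39) without sham replicate 2, SMAD7 (0.47), ID3 (0.48) and SLC39A14 (-0.26) without DAC replicate 5, STEAP3 (-0.89) without DAC replicate 6, and FBXL5 with its own variance. Of the members, FTH1 turned positive in 5 alternatives (0.01 to 0.10), SLC40A1 negative in 3 (-0.04 to -0.03), ACO1 negative in 2 (-0.04) and NCOA4 positive in 1 (0.05). Other directions changed only for genes that did not pass. BMP2 became 0.0060 with median scaling, 0.0202 without the mitochondrially encoded genes and 0.0227 with sample weights, ID1 0.0031 with quantile normalization and 0.0592 with sample weights, and SLC25A37 0.0011 with quantile normalization and 0.0137 without the mitochondrially encoded genes. On leaving out 1 minipig, log2 differences ranged from -0.16 to 0.22 (BMP2), -0.19 to 0.0671 (BMP4), -0.26 to 0.0554 (RGMA), -0.11 to 0.13 (RGMB), -0.0771 to 0.0417 (BMPR2), -0.0385 to 0.47 (SMAD7), -0.37 to 0.32 (ID1), -0.23 to 0.24 (ID2), -0.0031 to 0.48 (ID3), -0.0592 to 0.0347 (SLC25A37) and -0.0579 to 0.10 (SLC25A28). An adjusted P under 0.05 was reached by 1 gene without sham replicate 3 and 1 without DAC replicate 6. No paired analysis was possible because the groups share no replicate number. With 3 minipigs per group and unknown depth, small differences of low genes such as SLC11A2 could not be resolved.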

Other observations

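Some genes ran opposite to HJV over the 6 minipigs, and these were picked after their values were seen. They were PARL (Pearson r = -0.989), a mitochondrial protease, G3BP2 (-0.988), SMAD1 (-0.987), UCP2 (-0.985), a mitochondrial carrier, and ATL3 (-0.983). UCP2 was at 4.16, 4.99 and 4.84 FPKM in sham and 5.51, 10.2 and 6.44 FPKM in DAC, highest in DAC replicate 5, where HJV was lowest. The genes most like TFRC, also picked afterwards, were RPN2 (r = 0.991), EWSR1 (0.982) and CPSF2 (0.978), and the most opposite was MIER2 (-0.995). TXNDC5, which overlaps the end of BMP6, was the gene most opposite to BMP6 (r = -0.994). Each is an extreme of 11028 correlations over 6 points and is given as a value only.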
